A study of Mus musculus with 7 samples.

Results

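Immediate early and stress genes were followed in hematopoietic stem cells (HSCs) with and without Cebpa. The 38 genes are transcription factors, feedback proteins and chaperones known for fast induction after a stimulus or a stress. They were picked by name, with no threshold on a measured value, but with earlier results of these data known. Of the 38 genes, 37 were measured by a probe set annotated to a single gene, among 19938 genes measured in all. The remaining member, Hspa1b, shared its only probe set with its near-identical neighbour Hspa1a. Where a gene had more than 1 probe set, as Socs3 had, the probe set with the highest mean was taken.

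Bone marrow of female C57BL/6 mice was the source of the HSCs, which were taken by FACS as lineage-negative, Sca1+, c-Kit+, CD150+, CD48- cells. The Cebpa Δ/Δ group comprised 4 arrays from Cebpa flox/flox;Mx1Cre mice, and the Cebpa fl/fl group comprised 3 arrays from Cebpa flox/flox mice without the Cre transgene. Cebpa encodes the transcription factor C/EBPα, and Mx1Cre is a Cre recombinase under an interferon-responsive promoter, which is active in many tissues besides HSCs and was switched on with the interferon inducer pIC. Both genotypes carried the loxP-flanked Cebpa alleles, received pIC and were killed at day 18, bones were crushed, and the marrow was enriched for c-Kit+ cells before the sort. The design counts as many mice as arrays, whereas the labels speak of triplicates. Values below are log2 of the deposited intensity, and an array is named by its genotype and replicate number.

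Cebpa itself had log2 intensities of 5.11, 5.24, 5.27 and 5.27 on the Cebpa Δ/Δ arrays, against 5.54, 5.75 and 5.63 on the Cebpa fl/fl arrays, in the order of their replicate numbers. All Cebpa Δ/Δ values lay below all Cebpa fl/fl values, with a log2 fold change of -0.41 ± 0.072 (SE, limma, adjusted p = 0.337). The two-sided exact permutation test gave p = 0.0286, below which 35 splits of 7 arrays cannot go. All 7 values were below the array medians, 5.79 to 5.87, where background limits an intensity. The fold change of Cebpa may therefore understate the difference in RNA. The part of Cebpa that its probe set reads is not given in the sources used here. HSC markers were present on every array, the lowest at a log2 intensity of 5.97.

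Immediate early genes are transcribed within minutes of a signal and need no new protein synthesis. Growth factor, cytokine and stress kinases act on factors that already sit on their promoters, among them SRF at CArG boxes, CREB at cyclic AMP response elements and NF-κB, and the products are short-lived transcription factors together with inhibitors that end the response. Tissue dissociation and cell sorting are known to induce many of these genes, and several of them, such as Egr1, Nr4a1 and Junb, are also known as regulators of HSC quiescence.

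The promoter sequences available for these genes were searched for such elements. RefSeq windows (GRCm38.p6) of 250 bases before and 50 bases after the transcription start were available for 32 of the 38 genes, in 47 windows. Egr1, Egr3, Myc, Ier2, Nfkbiz and Rgs1 had no window and were not searched, so percentages of members refer to the 32. The background was 27025 genes with 32851 windows. The cyclic AMP response element (CRE, TGACGTCA) was found on either strand in 4 of the 32 genes, or 12.5%, against 2.03% of all genes. These were Maff, Btg2, Dusp1 and Ppp1r15a. Their 250 bases before the start are shown with the CRE in capitals, because they are the searched members that carry a complete element. Maff lies at chr15:79347270-79347519 on the plus strand, Btg2 at chr1:134079156-134079405, Dusp1 at chr17:26508473-26508722 and Ppp1r15a at chr7:45526269-45526518, the last 3 on the minus strand.
Maff: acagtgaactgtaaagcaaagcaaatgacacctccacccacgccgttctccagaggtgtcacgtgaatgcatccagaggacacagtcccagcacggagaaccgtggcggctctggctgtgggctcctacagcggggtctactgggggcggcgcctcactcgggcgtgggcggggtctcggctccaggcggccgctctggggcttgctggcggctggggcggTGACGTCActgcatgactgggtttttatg
Btg2: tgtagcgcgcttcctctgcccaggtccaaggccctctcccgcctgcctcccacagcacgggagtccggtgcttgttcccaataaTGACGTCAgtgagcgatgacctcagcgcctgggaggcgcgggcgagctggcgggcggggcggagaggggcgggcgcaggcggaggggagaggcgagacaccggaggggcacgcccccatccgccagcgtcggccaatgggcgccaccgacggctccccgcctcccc
Dusp1: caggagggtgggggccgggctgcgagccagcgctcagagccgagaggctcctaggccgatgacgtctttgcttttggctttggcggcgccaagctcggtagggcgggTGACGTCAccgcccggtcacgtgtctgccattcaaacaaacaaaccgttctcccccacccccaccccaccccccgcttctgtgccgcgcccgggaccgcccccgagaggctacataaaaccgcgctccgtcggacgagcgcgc
Ppp1r15a: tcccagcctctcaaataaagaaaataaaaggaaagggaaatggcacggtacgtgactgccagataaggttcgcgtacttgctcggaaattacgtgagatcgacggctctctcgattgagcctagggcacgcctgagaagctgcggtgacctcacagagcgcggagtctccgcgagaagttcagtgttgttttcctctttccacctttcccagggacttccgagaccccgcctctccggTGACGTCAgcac

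The CRE began 29 bases before the start in Maff, 166 in Btg2, 143 in Dusp1 and 12 in Ppp1r15a. A CArG box was found in Zfp36 and Egr2, or 6.25% of the members, against 1.81% of all genes. Both are shown with the box in capitals, since Zfp36 and Egr2 differed widely in how their values spread over the arrays. Zfp36 lies at chr7:28379229-28379478 on the minus strand and Egr2 at chr10:67537316-67537565 on the plus strand, in 1 of several annotated starts.
Zfp36: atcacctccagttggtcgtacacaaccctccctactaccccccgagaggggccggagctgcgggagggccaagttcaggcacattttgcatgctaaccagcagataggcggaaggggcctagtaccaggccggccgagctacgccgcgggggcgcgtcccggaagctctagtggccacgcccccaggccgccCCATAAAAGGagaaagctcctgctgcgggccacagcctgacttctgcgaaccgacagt
Egr2: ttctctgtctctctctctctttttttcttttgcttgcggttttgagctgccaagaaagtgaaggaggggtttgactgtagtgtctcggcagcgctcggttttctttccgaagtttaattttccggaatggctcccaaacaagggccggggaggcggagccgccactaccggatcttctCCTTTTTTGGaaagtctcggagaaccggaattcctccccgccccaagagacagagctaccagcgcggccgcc

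An NF-κB motif was found in 8 of the 32 genes, or 25%, against 5.14% of all genes. The 8 were Fos, Fosb, Fosl2, Maff, Nr4a1, Ier3, Nfkbia and Tnfaip3. The heat shock motif GAANNTTC was found in Fosl2, Jun, Sgk1, Hspa1a and Hspa1b, 15.6% of the members against 9.04% of all genes. The AP-1 motif TGANTCA occurred in Csrnp1 and Tnfaip3, 6.25% against 8.97%, and the EGR motif GCGTGGGCG in Maff alone, 3.12% against 0.707%. The C/EBP motif TTGCNNAA, that of the deleted factor's family, occurred in Jund, Maff and Sgk1, 9.38% of the members against 12.2% of all genes. All motifs were searched on both strands of the whole window, none contains another, and genes with several windows had more sequence in which to hold a match. A match describes the letters only.

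A single array of each genotype held the highest values of most of these genes. Array 4 of Cebpa Δ/Δ was the highest of its genotype for 33 of 37 members, and array 3 of Cebpa fl/fl for 35 of 37. Both held together for 33 members, or 89.2%, against 7.46% of all genes. The exceptions were Egr2, Myc, Gadd45b and Nfkbia. Averaged over the members, the log2 intensity lay 0.95 above the gene mean on array 4 and 0.45, 0.34 and 0.50 below it on arrays 1, 2 and 3 of Cebpa Δ/Δ, while it lay 1.27 above on array 3 and 0.44 and 0.49 below on arrays 1 and 2 of Cebpa fl/fl. Over all genes these means stayed between -0.012 and 0.017.

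**Figure D1:**
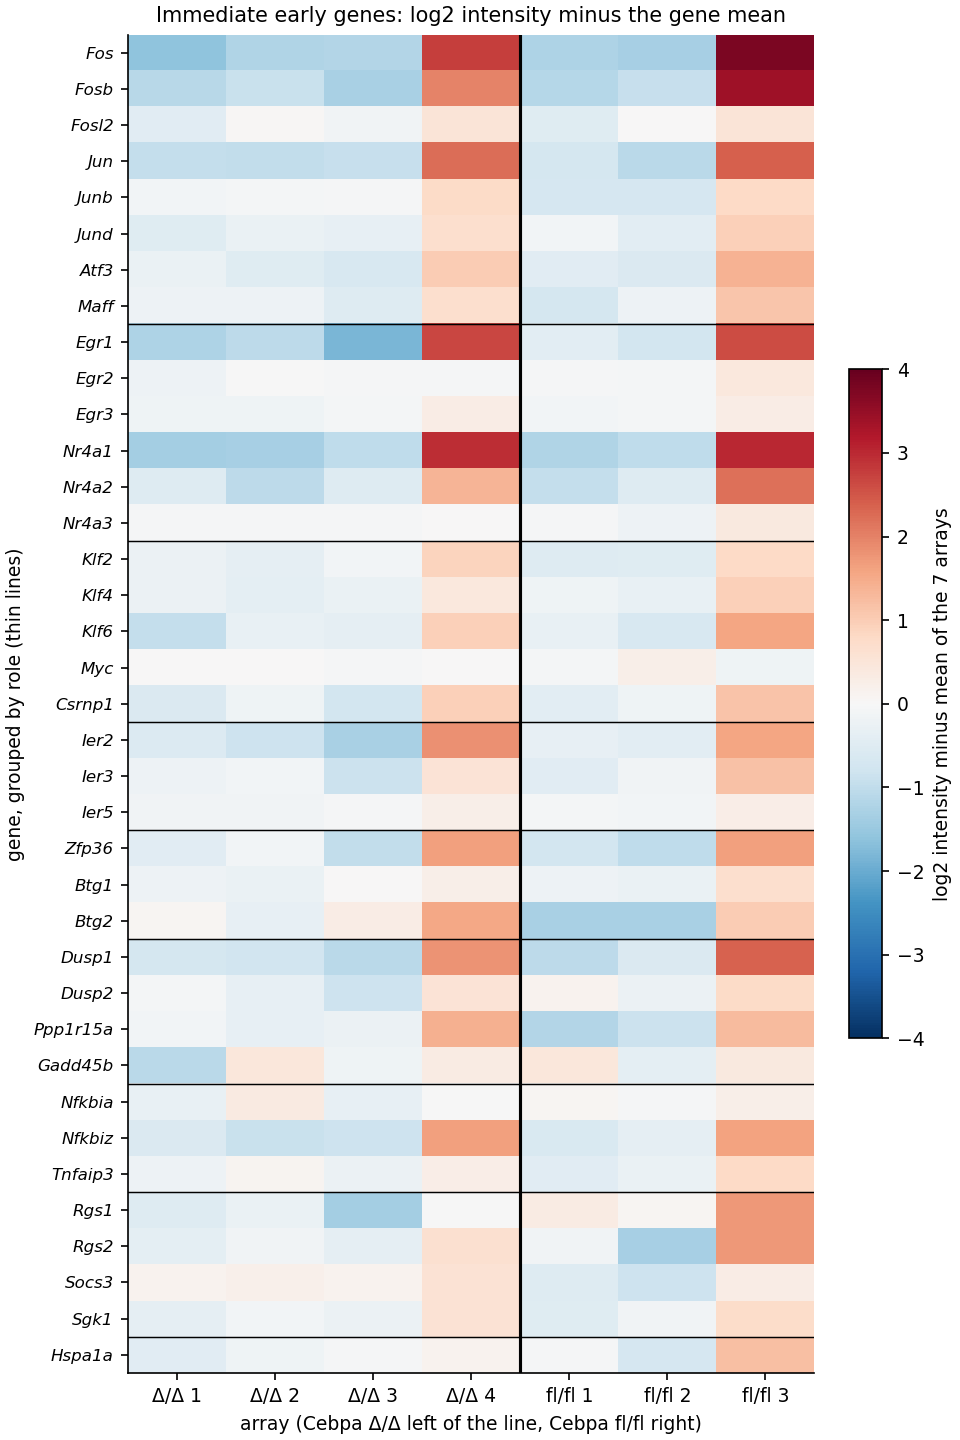
Log2 intensity minus the gene's mean over 7 arrays, in colour (red above, blue below), for the 37 measured genes (rows, grouped by role) on the Cebpa Δ/Δ arrays (left of the line) and the Cebpa fl/fl arrays (right). Array Δ/Δ 4 and array fl/fl 3 are red for most rows, whereas Egr2, Nr4a3, Myc, Ier5 and Nfkbia are pale throughout.

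The lead of an array was taken as its log2 intensity minus that of the next highest array of its genotype. In 28 genes, 0.14% of all, both arrays led by more than 1, and 15 of the 28 were members. No other pairing of a Cebpa Δ/Δ array with a Cebpa fl/fl array gave more than 6 such genes, and none gave a member. The median lead over the members was 0.83 for Δ/Δ 4 and 1.31 for fl/fl 3, against -0.10 and -0.056 over all genes. Between the 2 high arrays themselves, Δ/Δ 4 was above fl/fl 3 for 9 members and below it for 28, by a median difference of -0.22. Over all genes the mean correlations to the other arrays were 0.985 for Δ/Δ 4 and 0.982 for fl/fl 3, where the 7 arrays spanned 0.980 to 0.986. The deviations from the genotype means, however, correlated at 0.33 across genes between Δ/Δ 4 and fl/fl 3, the highest of the 12 pairs of a Cebpa Δ/Δ with a Cebpa fl/fl array, followed by 0.27 for Δ/Δ 3 and fl/fl 1. With the members left out these values were 0.27 and 0.26, so that Δ/Δ 4 with fl/fl 3 no longer stood apart. Deviations from a genotype mean cancel out within the genotype, so some of the 12 pairs must correlate positively. Genes are not independent replicates, and the correlations are a description. Nothing in the labels sets Δ/Δ 4 and fl/fl 3 apart, and what they share was not tested.

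**Figure D2:**
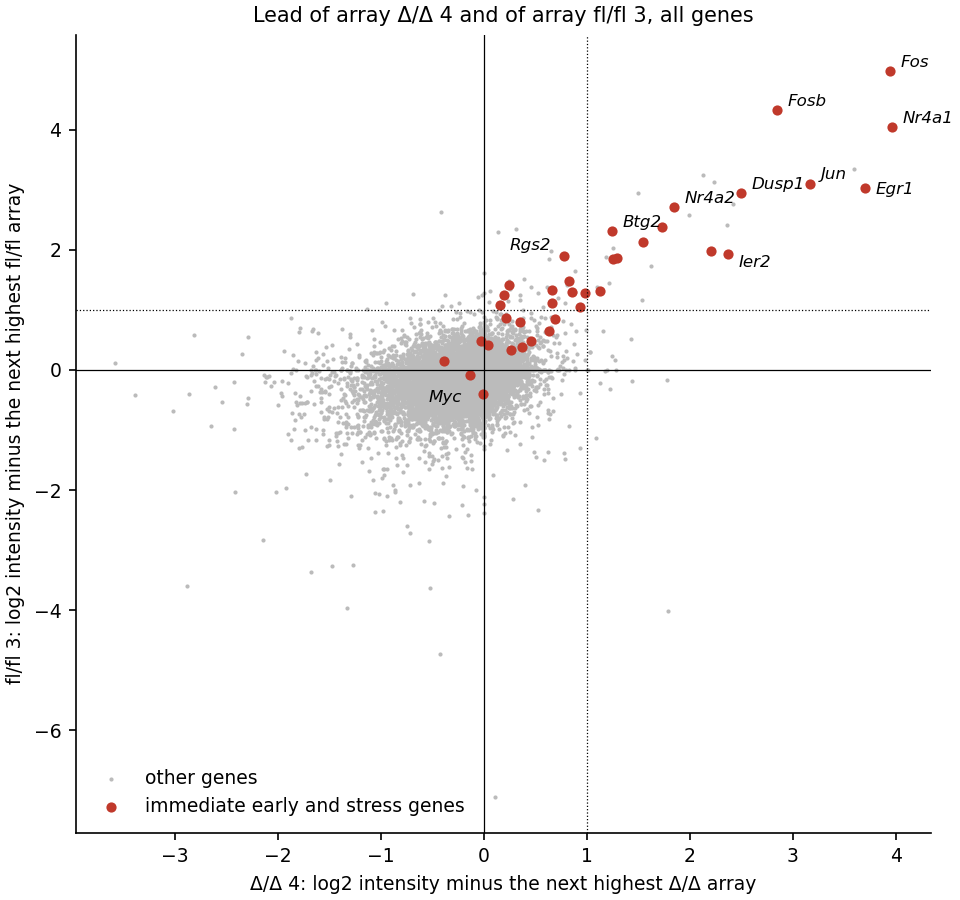
Lead of array Δ/Δ 4 within Cebpa Δ/Δ (horizontal, log2) against lead of array fl/fl 3 within Cebpa fl/fl (vertical, log2), for 37 members (red) and all other genes (grey); dotted lines mark a lead of 1. Of the 28 genes past both dotted lines 15 are members. Among the members Fos, Fosb, Nr4a1, Egr1 and Jun are farthest out, and Snord118, not a member, lies as far out at 3.60 and 3.35.

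Among the AP-1 proteins, which pair through leucine zippers and bind TGANTCA, Fos varied most. Fos had log2 intensities of 4.63, 5.03, 5.07 and 9.02 in Cebpa Δ/Δ, against 5.02, 4.92 and 9.9999 in Cebpa fl/fl. In deposited intensities array 4 thus led the other Cebpa Δ/Δ arrays 15.4-fold, array 3 led the other Cebpa fl/fl arrays 31.5-fold, and the other arrays of both genotypes lay together. The 5 low values of Fos, and those of Fosb, were below the medians of their arrays, 5.79 to 5.87, where background limits an intensity, so that such folds may understate the difference in RNA. Fosb, the paralog that shares the partners of Fos, gave 5.18, 5.40, 4.98 and 8.25 in Cebpa Δ/Δ, against 5.12, 5.34 and 9.66 in Cebpa fl/fl. Jun, the partner in the classic heterodimer, gave 6.80, 6.75, 6.81 and 9.98 in Cebpa Δ/Δ, against 7.03, 6.67 and 10.13 in Cebpa fl/fl. For both genes the groups overlapped fully outside the high arrays. Jund, the constitutive Jun protein, gave 7.82, 8.05, 7.97 and 8.99 in Cebpa Δ/Δ, against 8.21, 7.88 and 9.26 in Cebpa fl/fl, a smaller lead on the same arrays.

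Junb, which restrains HSC proliferation, also differed between the genotypes on the other arrays. It gave 7.27, 7.29, 7.32 and 8.15 in Cebpa Δ/Δ, against 6.69, 6.71 and 8.18 in Cebpa fl/fl. The low arrays of Cebpa Δ/Δ spanned 0.051 and all lay above the low arrays of Cebpa fl/fl, which spanned 0.021, whereas the high arrays of both genotypes were level. Without Δ/Δ 4 and fl/fl 3, 9.14% of all genes separated in that direction. Atf3, a stress-induced partner that mostly represses, reached 6.00 on Δ/Δ 4 and 6.37 on fl/fl 3 and was between 4.34 and 4.71 on the other arrays. Maff, a small Maf protein without an activation domain, led by 0.86 on Δ/Δ 4 and 1.30 on fl/fl 3. Fosl2 led by only 0.46 and 0.47.

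Egr1, a zinc finger factor induced through SRF, gave 7.04, 7.25, 6.47 and 10.95 in Cebpa Δ/Δ, against 7.85, 7.56 and 10.88 in Cebpa fl/fl. Besides the high arrays, which were level, the low arrays of Cebpa Δ/Δ all lay below those of Cebpa fl/fl. On these arrays 7.36% of all genes separated in that direction. Nr4a1, an orphan nuclear receptor, gave 5.55, 5.59, 5.89 and 9.86 in Cebpa Δ/Δ, against 5.70, 5.89 and 9.94 in Cebpa fl/fl. Its lead was 15.6-fold on Δ/Δ 4 and 16.5-fold on fl/fl 3. Nr4a2 of the same family gave 6.51, 5.98, 6.51 and 8.37 in Cebpa Δ/Δ, against 6.06, 6.51 and 9.22 in Cebpa fl/fl.

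Other members of both families moved little. The range over 7 arrays was 0.47 for Egr3, 0.58 for Nr4a3 and 0.64 for Egr2, where the median gene ranged over 0.47. Nr4a3 and Egr2 were among the 5 members, with Atf3, Klf4 and Hspa1a, whose mean level was below that of the median gene. Nr4a3 and Egr2 lay below the array median on all 7 arrays, so their small ranges do not show that their RNA was unchanged. Egr2, with CArG boxes in its promoter windows, was at 5.28 on Δ/Δ 4 and was not the highest there.

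Of the Krüppel-like factors, Klf6 led by 1.25 on Δ/Δ 4 and 1.85 on fl/fl 3, Klf2, a quiescence factor of lymphocytes and endothelium, by 0.99 and 1.29, and Klf4, known from stem cell reprogramming, by 0.67 and 1.12. Csrnp1, a nuclear protein induced by Axin, led by 1.13 and 1.31. Myc stood apart. It gave 10.94, 10.94, 10.88 and 10.94 in Cebpa Δ/Δ, against 10.85, 11.17 and 10.77 in Cebpa fl/fl, with fl/fl 3 the lowest array. Its log2 fold change was -0.004 ± 0.098 (SE).

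Ier2, a nuclear immediate early protein, gave 7.40, 7.11, 6.65 and 9.77 in Cebpa Δ/Δ, against 7.60, 7.50 and 9.52 in Cebpa fl/fl. It led by 2.37 on Δ/Δ 4 and 1.92 on fl/fl 3. Ier3, an inhibitor of stress-induced death, gave 8.61, 8.71, 7.95 and 9.37 in Cebpa Δ/Δ, against 8.37, 8.66 and 9.99 in Cebpa fl/fl. Ier5, which promotes the activity of heat shock factor 1, ranged over 0.40 only, yet was also highest on Δ/Δ 4 and fl/fl 3.

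Zfp36 encodes tristetraprolin, which binds AU-rich elements and triggers mRNA decay. It gave 7.89, 8.25, 7.38 and 9.98 in Cebpa Δ/Δ, against 7.62, 7.34 and 9.99 in Cebpa fl/fl. The high arrays were level, and the other arrays overlapped. Btg2, an antiproliferative protein that recruits the CCR4-NOT deadenylase, gave 7.39, 7.002, 7.62 and 8.87 in Cebpa Δ/Δ, against 6.03, 6.02 and 8.35 in Cebpa fl/fl. Every low Cebpa Δ/Δ array lay above the low Cebpa fl/fl arrays, as for 9.14% of all genes on these arrays. Array Δ/Δ 4 was also above fl/fl 3. Btg1, its paralog, led by 0.22 on Δ/Δ 4 and 0.86 on fl/fl 3.

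Dusp1, a phosphatase that switches off p38 and JNK, gave 7.61, 7.54, 7.23 and 10.11 in Cebpa Δ/Δ, against 7.25, 7.74 and 10.68 in Cebpa fl/fl. The lead was 5.64-fold on Δ/Δ 4 and 7.7-fold on fl/fl 3. Ppp1r15a, or GADD34, brings protein phosphatase 1 to eIF2α and restores translation after stress. It gave 7.47, 7.26, 7.36 and 9.02 in Cebpa Δ/Δ, against 6.42, 6.72 and 8.84 in Cebpa fl/fl. Again the low Cebpa Δ/Δ arrays were all above the low Cebpa fl/fl arrays, as for 9.14% of all genes. Dusp2, a phosphatase of ERK and p38 in blood cells, led by 0.64 and 0.65. Gadd45b, a stress sensor that binds MAP kinase kinases, was highest on neither array, at 6.71 on Δ/Δ 4 and 6.76 on fl/fl 3 within a range of 1.53.

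The NF-κB inhibitor gene Nfkbia gave 8.27, 8.92, 8.23 and 8.54 in Cebpa Δ/Δ, against 8.63, 8.50 and 8.78 in Cebpa fl/fl, and Δ/Δ 2 was its highest array. Nfkbiz, which encodes the nuclear inhibitor family member IκBζ, led by 2.21 on Δ/Δ 4 and 1.98 on fl/fl 3. Tnfaip3, or A20, a ubiquitin-editing enzyme, led by 0.16 and 1.08. Nfkbiz and Nfkbia thus differed by over 1 in both leads.

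Rgs2, a regulator of G protein signalling, gave 7.21, 7.47, 7.27 and 8.25 in Cebpa Δ/Δ, against 7.46, 6.29 and 9.35 in Cebpa fl/fl. Sgk1, a kinase induced by serum and glucocorticoids, led by 0.69 on Δ/Δ 4 and 0.85 on fl/fl 3. Socs3, the feedback inhibitor of cytokine receptors of the gp130 and G-CSF type, gave 6.81, 6.90, 6.82 and 7.25 in Cebpa Δ/Δ, against 6.18, 5.86 and 6.97 in Cebpa fl/fl. Its groups overlapped only through fl/fl 3. The second Socs3 probe set gave 6.64, 6.64, 6.89 and 6.88 in Cebpa Δ/Δ, against 5.51, 5.71 and 6.95 in Cebpa fl/fl, with the same overlap. Hspa1a, an inducible HSP70 chaperone, stood at 5.28 to 5.90 in Cebpa Δ/Δ, against 5.07 to 6.96 in Cebpa fl/fl, with the top value of each genotype on Δ/Δ 4 and fl/fl 3. The probe set shared by Hspa1a and Hspa1b gave 6.96 on Δ/Δ 4 and 7.60 on fl/fl 3, the highest of each genotype, and the signals of these copies cannot be told apart.

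**Figure D3:**
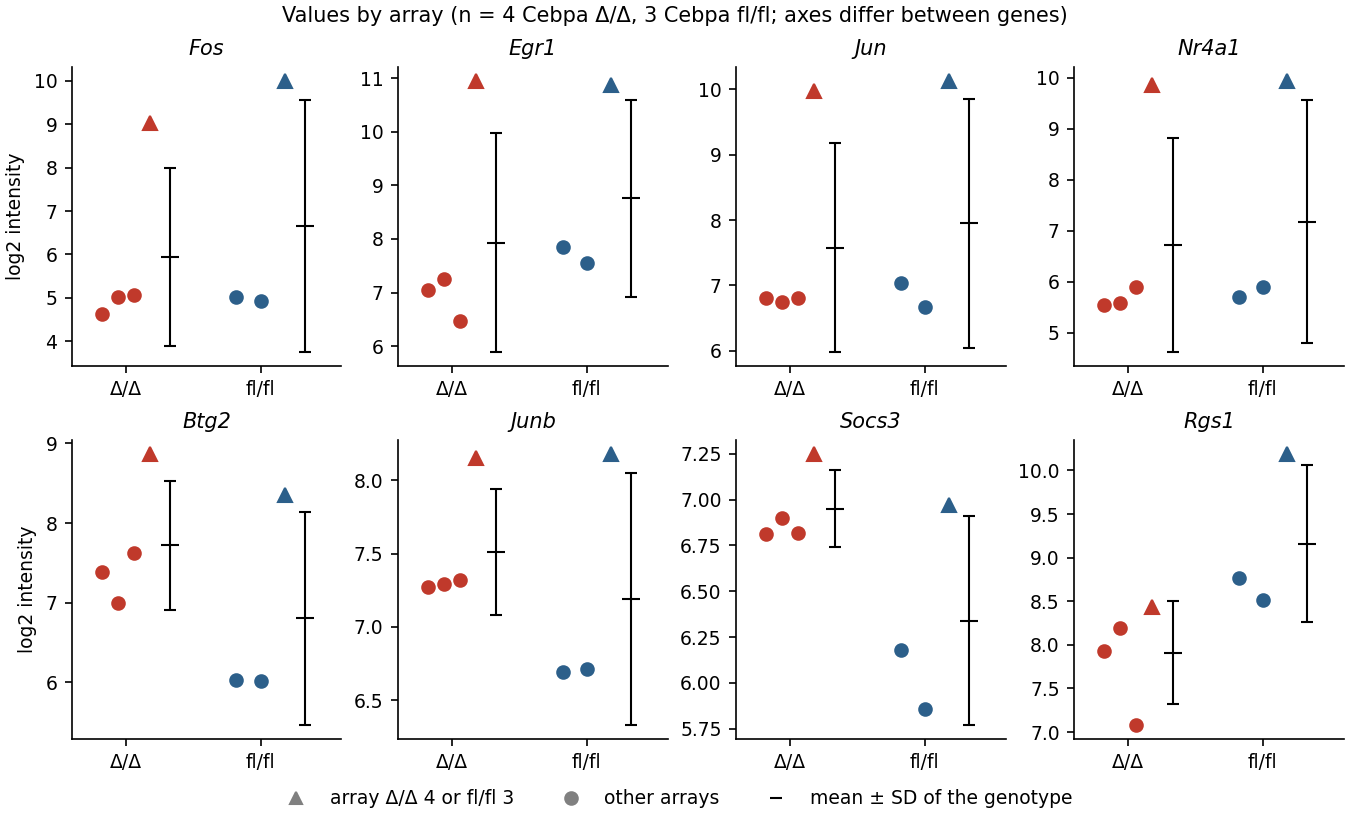
Log2 intensity of 8 genes on each array, Cebpa Δ/Δ (red, left, n = 4) and Cebpa fl/fl (blue, right, n = 3), with arrays Δ/Δ 4 and fl/fl 3 as triangles and the mean ± SD in black; axes differ between genes. In Fos, Egr1, Jun and Nr4a1 each triangle stands more than 3 log2 units above every circle of its genotype, in Btg2, Junb and Socs3 the red circles lie above the blue ones, and in Rgs1 all red points lie below all blue ones.

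Whether the loss of Cebpa changed these genes was asked with limma over all genes, with p-values adjusted by the Benjamini-Hochberg method. No member passed an adjusted p of 0.05 in this test, nor did any gene on the array (0% called), and 1 member, Rgs1, had an unadjusted p under 0.05, against 7.48% of all genes. The study's thresholds are a p under 0.05 and a change over 1.5-fold, and the p was taken here as unadjusted, which the study does not state. At these, 0 members were higher, against 1.57% of all genes, and 1 was lower, against 0.617% of all genes. The median log2 fold change of the members was -0.20, against 0.00 over all genes. Of the 37 members, 31 had a log2 fold change below 0 and 6 had a log2 fold change above 0. In bulk samples, fewer cells that express a gene and less RNA per cell cannot be told apart.

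Rgs1, which blunts chemokine receptor signalling, was the member below. It gave 7.93, 8.19, 7.08 and 8.43 in Cebpa Δ/Δ, against 8.77, 8.51 and 10.19 in Cebpa fl/fl. Every Cebpa Δ/Δ array was below every Cebpa fl/fl array, a separation found in that direction for 2.46% of all genes and in the other direction for 3.51%, where no member had it. The mean was 7.91 ± 0.59 (SD, n = 4) in Cebpa Δ/Δ and 9.16 ± 0.90 (SD, n = 3) in Cebpa fl/fl, with a log2 fold change of -1.25 ± 0.49 (SE), an unadjusted limma p of 0.0412 and an adjusted p of 0.663. The exact two-sided permutation p was 0.0286. Array fl/fl 3 was again the highest, and without it the log2 fold change was -0.73 with an unadjusted limma p of 0.117. The unadjusted limma p of Rgs1 also exceeded 0.05 when Cebpa Δ/Δ array 1, 2 or 3 or Cebpa fl/fl array 1 was dropped, at log2 fold changes of -1.26, -1.34, -0.97 and -1.44.

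The high arrays widened the errors of the comparison. The median standard error of the log2 fold change was 0.48 over the members, against 0.11 over all genes. Fos averaged 5.94 ± 2.06 (SD, n = 4) in Cebpa Δ/Δ and 6.65 ± 2.90 (SD, n = 3) in Cebpa fl/fl, a log2 fold change of -0.71 ± 1.63 (SE, limma, adjusted p = 0.916). For Egr1 the log2 fold change was -0.84 ± 1.32 (SE, adjusted p = 0.868). For such genes a genotype difference as large as these errors, or somewhat larger, was not detectable. The only other member with an unadjusted limma p near 0.05 was Socs3, with a log2 fold change of 0.61 ± 0.27 (SE), an unadjusted p of 0.0603, an adjusted p of 0.667 and an exact permutation p of 0.143.

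Since fl/fl 3 is 1 of 3 arrays and Δ/Δ 4 is 1 of 4, the high array weighs more in the Cebpa fl/fl mean. Without fl/fl 3 the median log2 fold change of the members was 0.28, and 25 of the 37 members changed sign. Without Δ/Δ 4 it was -0.41, and 2 changed sign.

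The comparison was therefore also made without both high arrays, an alternative chosen after their values were seen. Because the arrays were left out for their values in these very genes, its p-values are not independent of that choice and are given as a description. The median standard error of the members was 0.16, against 0.12 over all genes, and the median log2 fold change was -0.031. No member and no other gene passed an adjusted limma p of 0.05, while 6 members, or 16.2%, had an unadjusted p under 0.05, against 5.44% of all genes. At the study's thresholds 4 members were higher, against 1.43% of all genes, and 1 was lower, against 0.597% of all genes. Without the high arrays 6 members did not overlap between genotypes and were higher, against 9.14% of all genes, and 3 were lower, against 7.36%.

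The 4 higher members were Btg2, Socs3, Ppp1r15a and Junb. Btg2 had a log2 fold change of 1.31 ± 0.20 (SE) without the high arrays, compared with 0.92 ± 0.71 with all arrays. Socs3 had 0.82 ± 0.11 without them, compared with 0.61 ± 0.27 with all arrays. Ppp1r15a had 0.79 ± 0.12 without them, compared with 0.45 ± 0.71 with all arrays. Junb had 0.59 ± 0.046 without them, compared with 0.32 ± 0.43 with all arrays. All 4 lay above 0 in either fit, but the fits share their other arrays, so their agreement is not independent. The smaller standard errors follow from leaving out arrays chosen for their high values in these genes. Without the high arrays the adjusted limma p-values of the 4 ran from 0.326 for Junb to 0.76 for Btg2 and Ppp1r15a. Klf2 followed with 0.27 ± 0.09 (SE) without the high arrays.

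The lower member was Egr1, with a log2 fold change of -0.79 ± 0.28 (SE) without the high arrays. With all arrays it was -0.84 ± 1.32, since the high values left out were level, at 10.95 and 10.88. Without fl/fl 3 alone it was 0.22, and without Δ/Δ 4 alone it was -1.84. Rgs1 stood at -0.91 ± 0.38 (SE) without the high arrays. Ier2 stood at -0.49 ± 0.25. For Fos, Fosb, Jun, Nr4a1 and Dusp1, by contrast, the log2 fold changes without the high arrays were -0.062, -0.043, -0.067, -0.12 and -0.031, with standard errors from 0.12 to 0.21. Each of these differences was smaller than its own standard error, which does not show that the genotypes were equal.

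**Figure D4:**
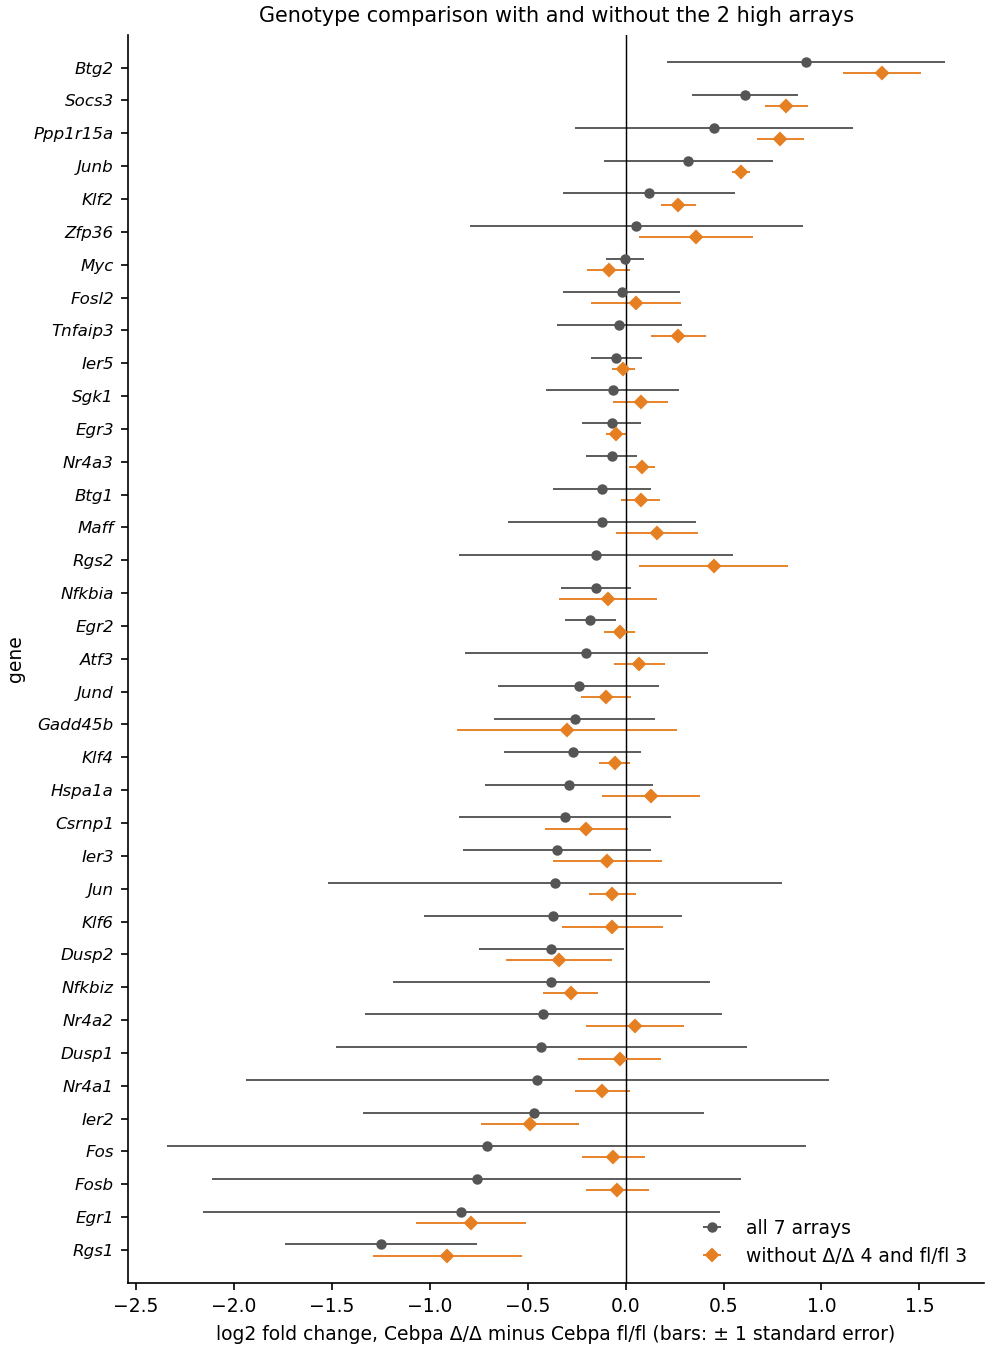
Horizontal, the log2 fold change of Cebpa Δ/Δ over Cebpa fl/fl for the 37 measured genes (rows) with all 7 arrays (grey circles) and without arrays Δ/Δ 4 and fl/fl 3 (orange diamonds); bars are ± 1 standard error. With all arrays most bars cross 0, and without the high arrays Btg2, Socs3, Ppp1r15a and Junb lie at 0.59 to 1.31 and Egr1 and Rgs1 at -0.79 and -0.91.

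Genes outside the member list showed how far the array pattern reached. Of 50 other immediate early genes, both high arrays were the highest of their genotype for 24, or 48%, against 7.46% of all genes. This list, too, was chosen with earlier results of these data known. Both arrays led by more than 1 in Ptgs2, Plk2, Cxcl2, Sik1, Cd69, Trib1 and Per1. Ptgs2, the inducible cyclooxygenase, gave 4.83, 4.36, 4.20 and 7.25 in Cebpa Δ/Δ, against 4.18, 4.85 and 7.60 in Cebpa fl/fl. The others with both leads over 1 were Gem, a small GTPase, the histone gene H2bc8, the small RNA genes Snord118, Snora31 and Rnu12, and 1700064E03Rik. They are named here because of their values. Snord118 led by 3.60 on Δ/Δ 4 and 3.35 on fl/fl 3, and Snora31 by 2.13 and 3.24.

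At the study's thresholds 2 of the 50 other immediate early genes were higher in Cebpa Δ/Δ and 0 lower. Over all genes 1.57% were higher and 0.617% lower. The smallest limma p-values belonged to Gadd45g, a stress sensor of the Gadd45 family, Bcl6, a transcriptional repressor, and Ifrd1. Gadd45g had a log2 fold change of 0.71 ± 0.22 (SE, adjusted p = 0.644), Bcl6 1.01 ± 0.34 (SE, adjusted p = 0.663) and Ifrd1 -0.29 ± 0.11 (SE, adjusted p = 0.663). For Gadd45g and Bcl6 neither lead exceeded 1.

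The kinases and factors that carry signals to these promoters lay, averaged as a list, close to their means on the high arrays. Such an average does not show how single genes deviated. Of 39 listed, 30 were measured. Both high arrays were the highest for 4 of them, or 13.3%, against 7.46% of all genes, with no lead over 1 in both. Their mean deviation was 0.067 on Δ/Δ 4 and 0.077 on fl/fl 3. At the study's thresholds 1 of the 30 was higher in Cebpa Δ/Δ, against 1.57% of all genes, and 0 lower, against 0.617%. The smallest p-values belonged to Nras, a RAS GTPase, with a log2 fold change of 0.33 ± 0.10 (SE), the ERK kinase gene Map2k2 with 0.21 ± 0.075, and Rps6ka3, the kinase RSK2, with 0.59 ± 0.24, all with limma adjusted p-values between 0.644 and 0.663.

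Heat shock genes, averaged as a list, were nearly flat over the arrays. Of 18 measured, both high arrays were the highest for 4, or 22.2%, against 7.46% of all genes. The mean deviation was 0.046 on Δ/Δ 4 and 0.0035 on fl/fl 3, where the member Hspa1a stood 1.22 above its mean on fl/fl 3. None passed the study's thresholds in either direction, against 1.57% of all genes higher and 0.617% lower. An unadjusted limma p under 0.05 was found for 4 of 18, against 7.48% of all genes. Hsf2, a heat shock factor, had a log2 fold change of -0.53 ± 0.16 (SE, adjusted p = 0.637), and the chaperone genes Hspe1 and Hsph1 had 0.32 ± 0.10 and 0.29 ± 0.092 (SE, adjusted p = 0.644 for both).

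**Figure D5:**
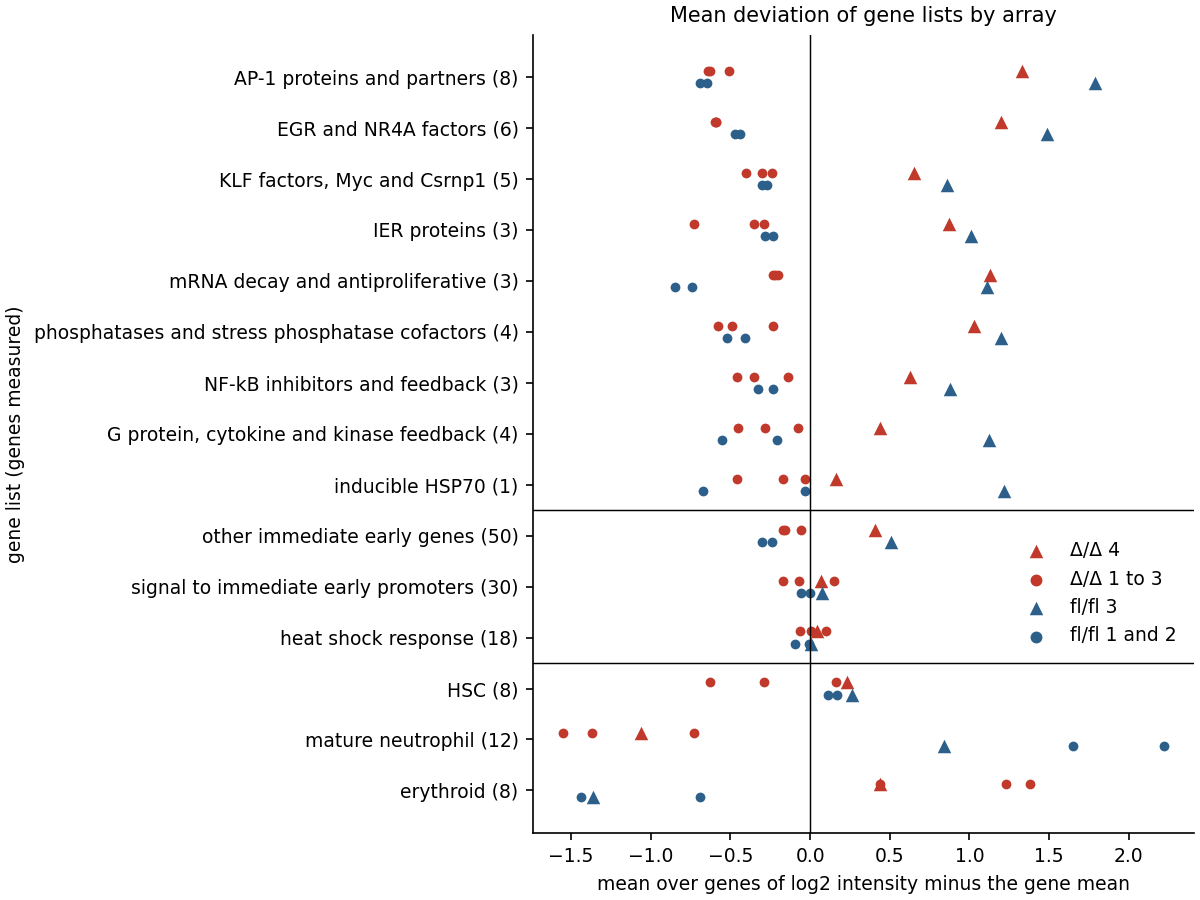
Mean over the genes of a list of log2 intensity minus the gene's mean (horizontal), for the 9 member roles (top), related pathways (middle) and markers of HSCs, mature neutrophils and erythroid cells (bottom), with Cebpa Δ/Δ arrays in red, Cebpa fl/fl arrays in blue, and Δ/Δ 4 and fl/fl 3 as triangles. Both triangles lie right of all circles for each member role and for other immediate early genes, and among the circles for the signalling genes.

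Markers of some other cell types moved with the genotype, where 1.57% of all genes were higher and 0.617% lower at the study's thresholds. Of 12 mature neutrophil markers 9 passed the study's thresholds as lower and 0 as higher, with summed linear intensities of 633.6 to 1346 in Cebpa Δ/Δ, against 7210 to 16770 in Cebpa fl/fl. All 8 measured erythroid markers were higher, with sums of 2211 to 4200 in Cebpa Δ/Δ, against 650.5 to 1009 in Cebpa fl/fl. No marker was at 0, since the lowest deposited intensity was 1.51. T and NK cell markers were higher in 4 of 10, macrophage and dendritic cell markers in 5 of 10 and endothelial and stromal markers in 3 of 10. Of the mast cell and basophil markers 1 of 8 was higher, and of the B cell and megakaryocyte markers 0 of 9 and 0 of 6. In none of these 6 lists was a marker lower. Their part in the differences of Rgs1, Btg2, Socs3, Ppp1r15a and Junb was not tested.

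Neutrophil and erythroid markers were not extreme on both high arrays. The neutrophil list deviated by -1.06 on Δ/Δ 4, within the other Cebpa Δ/Δ arrays at -1.55, -1.37 and -0.73, and by 0.84 on fl/fl 3, below the other Cebpa fl/fl arrays at 1.65 and 2.22. The erythroid list deviated by 0.44 on Δ/Δ 4 and -1.36 on fl/fl 3, each within or equal to the values of the other arrays of its genotype. The HSC list was highest on both, at 0.23 on Δ/Δ 4 and 0.26 on fl/fl 3, but the next arrays were at 0.16 and 0.17. No marker list other than that of HSCs was highest on both arrays, and 1 list, that of mast cells and basophils, was lowest on both. It deviated by -0.059 on Δ/Δ 4, where the other Cebpa Δ/Δ arrays were at 0.19, 0.21 and 0.41, and by -0.44 on fl/fl 3, where the other Cebpa fl/fl arrays were at -0.30 and -0.011. Its part in the values of the high arrays was not tested.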

How the data were processed

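Total RNA of sorted HSCs was amplified and biotin-labelled with NuGEN kits and run on the Affymetrix Mouse Gene ST platform. The deposited intensity values were made by the authors with RMA. In its standard form all arrays are forced to a common probe distribution after background correction, and probes are summarised by median polish. A change in total RNA per cell is therefore not visible, and several arrays can receive an identical value. The paper's methods name RMA and then a mean summarisation of probe sets in Partek Genomics Suite. The submitters' notes name RMA and affy (no version). Which of these summarisations made the deposited values is not stated. Values were linear (1.51 to 9840, array medians 46.18 to 50.35), so log2 was taken without a pseudocount.

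Of 35556 probe sets, 21789 carried 1 symbol, 1621 several and 12146 none in the platform annotation. Symbols were updated to GRCm38.p6 RefSeq names through gene identifiers, and the brightest single-gene probe set was kept for each of 19938 genes. Genotypes (4 Cebpa Δ/Δ, 3 Cebpa fl/fl) were compared by limma 3.58.1 in R 4.3.3 (lmFit, eBayes, Benjamini-Hochberg over all genes), checked on simulated data, and by exact two-sided permutation over 35 splits. No p was adjusted over the members. The test named by the study for its arrays is not given, and its thresholds were used. The number of arrays limits the precision, and where nothing else separates them, p-values measure the spread between these samples.

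The members, the gene lists and the tests were chosen with earlier results of these data known. Values of all arrays are given for members past the study's thresholds or without overlap, the 12 with the widest range and the 6 with the highest mean, and for genes named after their values were seen, and the 3 smallest limma p-values of each related list are named. Alternatives were a replicate block, array medians subtracted, cyclic loess, array weights, only genes above the median level, low values raised to percentile 25, no variance moderation, the mean of a gene's probe sets, each array left out, and arrays Δ/Δ 3 and fl/fl 1 left out together. Leaving out Δ/Δ 4 and fl/fl 3 together was added after seeing the data. The sample titles number the replicates without stating a pairing. Deviations of same-numbered arrays correlated at -0.021, 0.10 and -0.18, which cannot decide whether they were paired. The highest of the 12 correlations, 0.33, was that of Δ/Δ 4 with fl/fl 3.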

Additional observations from a re-analysis of the deposited data

Results flagged for a closer look

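Each of the following genes had 1 of the 4 Cebpa Δ/Δ arrays far from the other 3, measured as the gap to the nearest array divided by the range of the 4. On array Δ/Δ 4, high in each case, the ratio was 0.98 for Jun, 0.942 for Junb, 0.925 for Nr4a3, 0.921 for Nr4a1, 0.9 for Fos, 0.881 for Ppp1r15a, 0.877 for Nfkbiz, 0.871 for Fosb and 0.867 for Dusp1. Among the other immediate early genes named, it was 0.959 for Sik1, 0.957 for Trib1, 0.887 for Plk2, 0.877 for Per1 and 0.861 for Cxcl2, again with Δ/Δ 4 high. Myc had a ratio of 0.904 with Δ/Δ 3 low, in a gene where Δ/Δ 2 and Δ/Δ 4 held the same value and the range over all 7 arrays was 0.40. Nr4a3 likewise had 2 equal Cebpa Δ/Δ arrays and a lead on Δ/Δ 4 of only 0.043.

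Chance flags about 1 in 20 groups, but among these values 22.6% of all genes were flagged, against 27% of the members (10 of 37), so a flag of any kind says little here. In 63.7% of all genes at least 2 of the 7 arrays held the same value (to 0.0001 on the log2 scale), which held for 6 of 37 members: Maff, Egr2, Nr4a2, Nr4a3, Myc and Hspa1a. Of the 10 members flagged, 9 had Δ/Δ 4 as the high array, 24.3% of all members, against 2.9% of all genes (579 genes) flagged in that way.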

How the results depend on the processing

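No member passed an adjusted p of 0.05 in limma under any alternative, and both high arrays were the highest for 33 members under each other scaling, for 32 with low values raised and for 29 of the members above the median level. The count lower at the study's thresholds, 1 (Rgs1), was 0 with the replicate block, with low values raised, without variance moderation, without Δ/Δ 3 and fl/fl 1 together, and 0 to 1 with single arrays left out, lost without Δ/Δ 1, 2 or 3 or fl/fl 1 or 3. The count higher, 0, was 1 (Socs3) with array medians subtracted, cyclic loess or only genes above the median level, 0 to 3 with single arrays left out, 3 without fl/fl 3, and 4 without both high arrays. Members without overlap, 0 higher and 1 lower, numbered 0 to 6 higher and 1 to 3 lower with single arrays left out, and 6 higher and 3 lower without both high arrays. The median log2 fold change lay between -0.50 without fl/fl 2 and 0.28 without fl/fl 3. With the replicate block it was -0.41, Rgs1 had -1.42 and no longer an unadjusted limma p under 0.05, and Klf2 (-0.16), Zfp36 (-0.48), Cd69 (-0.11) and Per1 (-0.20) changed sign, because Δ/Δ 4 is then a block of its own and fl/fl 3 is set against Δ/Δ 3. It changed no other call of a member, while 5 named genes of the related lists (Gadd45g, Bcl6, Ifrd1, Map2k2 and Hspe1) lost an unadjusted limma p under 0.05. Array weights turned Zfp36 to -0.0012. Without both high arrays together 10 members turned, and without fl/fl 3 alone 25. With arrays left out, singly or in the named pairs, the lowest and highest log2 fold changes of the genes whose sign turned were Fos -1.74 to 0.97, Fosb -1.55 to 0.72, Fosl2 -0.27 to 0.22, Jun -1.16 to 0.73, Jund -0.53 to 0.16, Atf3 -0.58 to 0.44, Maff -0.51 to 0.40, Egr1 -1.84 to 0.22, Egr3 -0.18 to 0.059, Nr4a1 -1.50 to 0.93, Nr4a2 -1.03 to 0.56, Nr4a3 -0.20 to 0.094, Klf2 -0.16 to 0.55, Klf4 -0.50 to 0.12, Klf6 -0.80 to 0.31, Myc -0.087 to 0.11, Csrnp1 -0.68 to 0.17, Ier2 -1.15 to 0.19, Ier3 -0.67 to 0.14, Ier5 -0.13 to 0.07, Zfp36 -0.48 to 0.89, Btg1 -0.29 to 0.17, Dusp1 -1.09 to 0.63, Ppp1r15a -0.004 to 1.21, Gadd45b -0.53 to 0.056, Nfkbiz -0.98 to 0.32, Tnfaip3 -0.27 to 0.36, Rgs2 -0.85 to 0.68, Sgk1 -0.33 to 0.28, Hspa1a -0.72 to 0.23, Cd69 -0.11 to 0.97, Per1 -0.20 to 0.59, Sik1 -0.99 to 0.46, Trib1 -0.60 to 0.45, Cxcl2 -1.18 to 0.54, Ptgs2 -1.08 to 0.64, Plk2 -0.65 to 0.89. Signal over background limits the 5 members below the level of the median gene, and also the low arrays of others, since 13 members, Fos and Fosb among them, had at least 1 array below that array's median.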
